A study of Mus musculus with 14 samples.

Results

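The genes described here are 10 genes of the NRF2 antioxidant pathway: Nfe2l2, Keap1, Gclc, Gclm, Slc7a11, Gsr, Txnrd1, Srxn1, Nqo1 and Osgin1. They were chosen by symbol as the transcription factor, its inhibitor and 8 known targets. All 10 were among the 24411 genes listed in every library, and all 10 were among the 14300 genes with enough reads to be tested. The libraries were bulk RNA sequencing of kidneys from male C57/B6 mice aged 8 weeks, with 4 libraries at day 0 and 5 each at day 1 and day 3 after renal ischemia/reperfusion injury (IRI), in which the blood supply of the kidney is interrupted and then restored. The deposited names call the day 0 kidneys controls, and no source used here says whether those mice had sham surgery. No transgene, knockdown or drug is named for any of the 14 libraries. In bulk kidney RNA, fewer cells of a type and less RNA per cell cannot be told apart. The labels give replicate numbers but do not say that each library came from its own mouse, so the p-values measure the spread between libraries.

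NRF2, the protein of Nfe2l2, is a transcription factor that binds DNA with a small MAF protein at the antioxidant response element and raises transcription of genes that make glutathione, reduce thioredoxin and detoxify quinones. In unstressed cells KEAP1 holds NRF2 in the cytoplasm and passes it to a ubiquitin ligase for destruction. Oxidants modify cysteines of KEAP1, NRF2 then escapes, and so the activity of the pathway is set mainly by the amount of NRF2 protein, which RNA does not measure. In the kidney the proximal tubule, rich in mitochondria, is the segment most exposed to oxidants when blood flow returns.

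The libraries held 12485579 to 20476979 reads on genes. Values are CPM, the reads of a gene relative to all reads on genes, scaled between libraries by TMM. At days 1 and 3 the deposited file names end in a number written with either 1 digit or 3 digits, and the meaning of this format is not given. Day 1 had 3 libraries with 1 digit and 2 with 3 digits, day 3 had 2 with 1 digit and 3 with 3 digits, and all 4 day 0 libraries had 1 digit. A 3-digit format and a later day therefore cannot be told apart when 3-digit libraries are set against day 0, and the changes from day 0 are given below for all libraries and for the 1-digit libraries alone. Proximal tubule markers were present in every library (summed over 10 genes, 41440 to 44960 CPM at day 0, 18502 to 46169 at day 1 and 9299 to 19143 at day 3). The summed CPM of 8 tubular injury markers was 389.5 to 475 at day 0, 3147 to 8362 at day 1 and 2242 to 7068 at day 3, that of 4 neutrophil markers was 1.20 to 1.84 at day 0, 44.8 to 192 at day 1 and 17.1 to 400.1 at day 3, and lymphocyte markers stayed near 0 (at most 1.09 over 4 genes). Fibroblast and pericyte markers summed to 93.1 to 98.6 CPM at day 0, 122 to 341 at day 1 and 377 to 815 at day 3 (4 of 5 genes called higher). Proliferation markers summed to 26.3 to 58.3 CPM at day 0 and at day 3 to 44.4 and 65.2 with 1 digit and 267 to 498 with 3 digits. Thick ascending limb markers summed to 5922 to 9054 CPM at day 0, 3071 to 5462 at day 1 and 2032 to 3333 at day 3, and distal tubule and collecting duct markers to 1403 to 2092, 776 to 1026 and 293 to 770. Macrophage markers summed to 125 to 202 CPM at day 0 and 72.0 to 127 at day 1, and at day 3 to 96.2 and 108 with 1 digit and 215 to 405 with 3 digits. Endothelium markers summed to 171 to 228 CPM at day 0, 225 to 393 at day 1 and 112 to 494 at day 3, and with 1 digit alone 3 of the 4 were called higher at day 1 and 4 at day 3. A sum can be carried by 1 gene: at day 1 with 1 digit Kap, the most abundant proximal tubule marker, was 29856 ± 2961 CPM against 29707 ± 1988 at day 0, while Lrp2 of the same list was 886 ± 397 against 3247 ± 148. In the thick ascending limb list Umod went from a mean of 5769 to 3880 CPM at day 1 and Slc12a1 from 1776 ± 386 to 147 ± 41.5 CPM. The part of these shifts in the results below was not tested.

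To show what the promoters of these genes carry, the letters of the antioxidant response element core, TGACNNNGC, were searched on both strands in RefSeq windows (GRCm38.p6) of 300 bases, 250 before and 50 after each annotated start. Windows were found for 8 of the 10 genes and not for Gclc and Gsr, and Txnrd1 had 3 windows. The core occurred in 4071 of all 32851 promoter windows (12.4%) and in windows of 4 of the 8 genes, Nfe2l2, Gclm, Txnrd1 and Srxn1. The broader TGANNNNGC, which contains the core, occurred in 41.3% of all windows and in those of 7 of the 8 genes, all but Nqo1. The narrower TGANTCAGC, which is also a case of the broader one and was chosen after these promoters had been seen, occurred in 390 windows (1.19%), among them those of Srxn1 and Osgin1. These are matches of letters and were not tested for binding, and a window without a match says only that the letters are not in it. The sequences that hold the matches are shown 5′ to 3′ on the strand of the gene, with the matches to the core or to TGANTCAGC in capitals, for the stretch from 250 to 31 bases before the start of Srxn1 (chr2:152105274-152105493, plus strand) and of Osgin1 (chr8:119436897-119437116, plus strand), and for shorter stretches of Nfe2l2 (chr2:75704865-75704913, minus strand), Gclm (chr3:122245393-122245461, plus strand) and the second of the Txnrd1 starts (chr10:82859084-82859152, plus strand).
Srxn1: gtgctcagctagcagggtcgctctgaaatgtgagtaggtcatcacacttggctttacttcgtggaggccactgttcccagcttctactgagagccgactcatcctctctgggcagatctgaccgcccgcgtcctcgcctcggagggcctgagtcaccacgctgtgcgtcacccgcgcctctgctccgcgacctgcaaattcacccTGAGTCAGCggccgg
Osgin1: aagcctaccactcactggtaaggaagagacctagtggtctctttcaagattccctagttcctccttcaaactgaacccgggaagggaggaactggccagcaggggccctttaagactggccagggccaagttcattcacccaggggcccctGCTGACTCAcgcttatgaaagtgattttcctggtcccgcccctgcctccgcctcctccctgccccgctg
Nfe2l2: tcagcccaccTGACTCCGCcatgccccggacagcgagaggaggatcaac
Gclm: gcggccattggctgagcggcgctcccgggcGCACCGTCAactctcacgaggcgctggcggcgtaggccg
Txnrd1: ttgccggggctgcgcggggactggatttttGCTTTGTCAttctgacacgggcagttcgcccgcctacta
In Srxn1 the match lay 45 to 37 bases before the start, with a match to the core 29 to 37 bases after it (not shown), and in Osgin1 it lay 99 to 91 bases before the start. This RefSeq start lies inside the Osgin1 gene of GENCODE M21 (chr8:119434124-119446256), whose outermost start was not searched. Srxn1 and Osgin1, the 2 genes with the narrower motif, were both higher at day 1 in libraries with 1 digit, while in those with 3 digits Srxn1 was higher and Osgin1 lower than at day 0. Txnrd1 and Slc7a11, whose windows lack the narrower motif, were also higher at day 1 with 1 digit. A link between motif and expression was not tested.

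**Figure D1:**
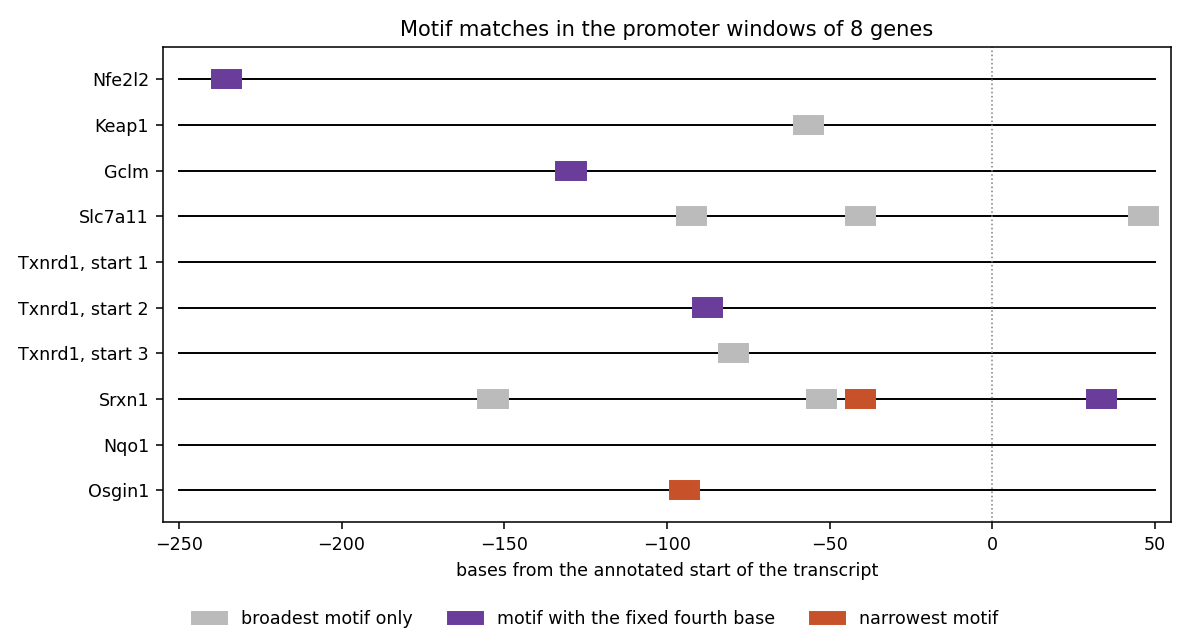
Position of motif matches in the promoter windows of 8 genes, with 1 line per window and the distance from the annotated start in bases on the horizontal axis. Grey boxes match the broadest motif only, purple boxes also the core and orange boxes the narrowest motif, and the windows of Nqo1 and the first Txnrd1 start hold none.

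At day 1 compared with day 0, Txnrd1, Srxn1, Slc7a11 and Osgin1 were higher and Gclc was lower, whereas Nfe2l2, Keap1, Nqo1, Gclm and Gsr did not pass the test. Of the 10 genes, 4 were called higher where 23.3% of all genes tested were, and 1 was called lower where 18.7% were (edgeR quasi-likelihood test, adjusted p under 0.05). The median log2 fold change of the 10 genes was 0.95, against 0.01 over all genes tested, and 4 of the 10 (Keap1, Txnrd1, Srxn1 and Slc7a11) had no overlap between the days, as did 42% of all genes. At day 3, Nqo1, Srxn1 and Slc7a11 were higher than at day 0 (3 of 10, with 19.5% of all genes called higher) and none of the 10 was called lower by edgeR (13.8% of all genes), while 1, Keap1, was lower at an unadjusted p under 0.05 and by DESeq2. The median was then 0.49, against 0.05 over all genes, and 3 (Gclm, Srxn1 and Slc7a11) had no overlap with day 0, as did 33.4% of all genes. Both comparisons share the day 0 libraries. Between the later days, Txnrd1 and Osgin1 were lower at day 3 than at day 1 (2 of 10, with 7.39% of all genes called lower) and none of the 10 was called higher (8.52% of all genes) by edgeR or DESeq2 or at an unadjusted p under 0.05. Of the 10, Txnrd1 alone had no overlap between the later days, as did 7.61% of all genes.

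**Figure D2:**
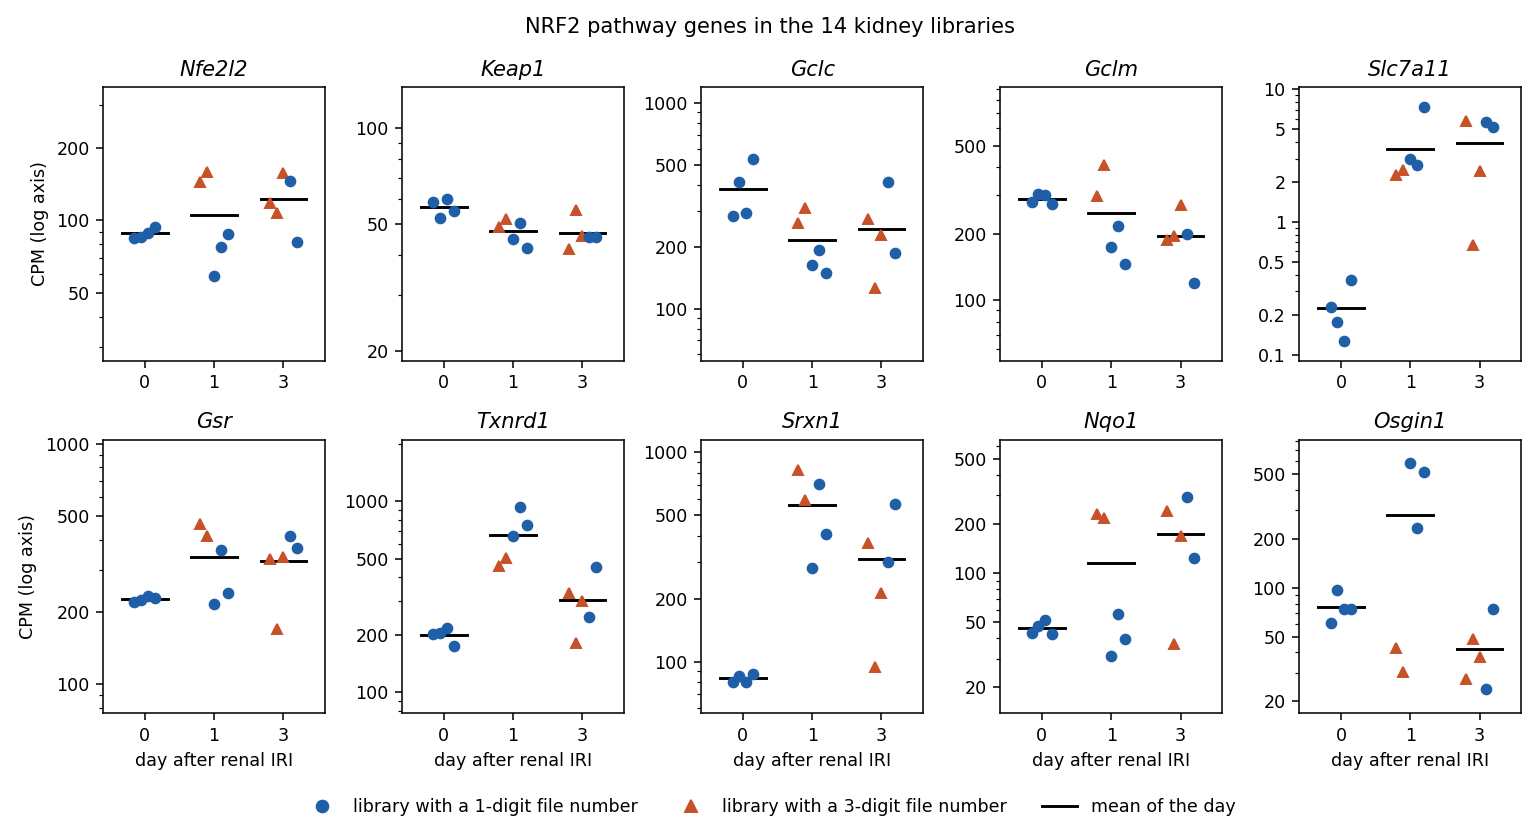
CPM of each gene (log axis, a scale of its own in each panel) in the 14 libraries by day, with circles for 1-digit and triangles for 3-digit libraries and a bar at the mean of each day. The 4 day 0 libraries lie close together for most genes, and at day 1 the circles and triangles of Nqo1 and of Osgin1 separate in opposite directions.

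The transcript of the factor itself was not called at either day over all libraries. Nfe2l2 (chr2:75675513-75704641, minus strand, up to 5 exons) had 84.7, 85.8, 88.9 and 94.1 CPM in the day 0 libraries. Day 1 gave 144 and 158 CPM with 3 digits and 59.2, 78.0 and 88.1 CPM with 1 digit, and day 3 gave 118, 108 and 158 CPM with 3 digits and 145 and 81.6 CPM with 1 digit. Both 3-digit libraries of day 1 lay above every day 0 library, and those with 1 digit lay within or below the day 0 range. Over all libraries the log2 fold change was 0.26 ± 0.26 (SE, adjusted p = 0.448) at day 1 and 0.47 ± 0.26 (adjusted p = 0.184) at day 3. When day 0 was set beside 3-digit libraries alone, the values were 0.78 (adjusted p = 0.00275) and 0.53 (adjusted p = 0.0127), and beside 1-digit libraries −0.24 ± 0.19 (adjusted p = 0.313) and 0.36 ± 0.22 (adjusted p = 0.174).

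Keap1 (chr9:21229730-21239361, minus strand, up to 6 exons), the inhibitor, varied least of the 10 genes after injury. Its CPM was 58.6, 52.3, 60.1 and 55.1 at day 0, 49.0, 51.8, 45.0, 50.5 and 42.1 at day 1 and 41.9, 55.3, 46.1, 45.7 and 45.7 at day 3. All 5 day 1 libraries were below all 4 day 0 libraries, whereas 1 library of day 3 fell within the day 0 range. The log2 fold change was −0.24 ± 0.11 at day 1 (adjusted p = 0.0826) and −0.27 ± 0.11 at day 3 (adjusted p = 0.0703), and with 1-digit libraries alone it was −0.30 ± 0.11 at day 1 (adjusted p = 0.0368) and −0.31 ± 0.13 at day 3 (adjusted p = 0.0607). The 1-digit value at day 3 was called with RLE size factors, with a minimum of 10 reads and by DESeq2 (adjusted p from 0.0362 to 0.0492) and without day 3 replicate 1, 2 or 3 (0.0378 to 0.0475). The 1-digit call at day 1 was lost when any of 6 libraries was left out (day 0 replicates 1, 3 and 4, day 1 replicates 3 and 5, or day 3 replicate 5), with adjusted p from 0.0565 to 0.139. Over all libraries but day 3 replicate 2, the day 3 value was −0.33 and was called (adjusted p = 0.0217), and over all libraries DESeq2 called both days (adjusted p = 0.0494 and 0.0203). The ratio of Nfe2l2 to Keap1 reads was 1.44 to 1.71 at day 0, 2.93 and 3.06 at day 1 with 3 digits and 1.31, 1.54 and 2.09 with 1 digit. At day 3 it was 1.79 to 3.42.

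Among the genes that supply glutathione, neither subunit of glutamate-cysteine ligase, the enzyme of the first and rate-limiting step, was called higher than at day 0, while the cystine transporter rose. Gclc (chr9:77754535-77794485, plus strand, up to 16 exons), the catalytic subunit, had 283, 415, 291 and 532 CPM at day 0. Day 1 gave 262 and 308 CPM with 3 digits and 163, 193 and 149 CPM with 1 digit. Day 3 gave 274, 125 and 228 CPM with 3 digits and 412 and 186 CPM with 1 digit. At day 1 a 3-digit library reached into the day 0 range and the 1-digit ones all lay below it. The log2 fold change of −0.82 ± 0.32 at day 1 passed the test narrowly (adjusted p = 0.0492), and the call was lost when any of 9 of the 14 libraries was left out (day 0 replicates 2, 3 and 4, day 1 replicates 3, 4 and 5, and day 3 replicates 1, 3 and 5). The call was also lost with the strands combined, with library totals as the scaling, with number format as a term and with a term for the replicate number. With 1-digit libraries alone Gclc was −1.18 ± 0.32 at day 1 (adjusted p = 0.00627), and with 3-digit libraries alone −0.41 (adjusted p = 0.342). Over all libraries it was −0.63 at day 3, with an SE of 0.32 (adjusted p = 0.136), and with 1 digit −0.35 ± 0.35 (adjusted p = 0.422).

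Gclm (chr3:122245557-122270732, plus strand, up to 8 exons), the modifier subunit, was the steadier of the pair at day 0, with 278, 303, 299 and 273 CPM. Its day 1 values were 297 and 409.8 CPM with 3 digits and 174, 218 and 145 CPM with 1 digit, so the formats lay on either side of the day 0 mean. Its day 3 values were 187, 196, 269, 200.3 and 119.8 CPM, all below the lowest day 0 library. Over all libraries the log2 fold change was −0.21 ± 0.27 at day 1 (adjusted p = 0.548) and −0.57 ± 0.27 at day 3 (adjusted p = 0.12). With 1-digit libraries alone Gclm was lower at both days (−0.69 ± 0.20, adjusted p = 0.0105, and −0.85 ± 0.23, adjusted p = 0.00844), and the calls were lost without day 1 replicate 5 (−0.55, adjusted p = 0.0577) and without day 3 replicate 5 (−0.50, adjusted p = 0.1502), respectively.

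Slc7a11 (chr3:49892526-50443614, minus strand, up to 12 exons) encodes the light chain of the cystine/glutamate exchanger, which brings in the cystine that limits glutathione synthesis. It had only 4, 3, 2 and 6 reads in the day 0 libraries (0.230, 0.177, 0.126 and 0.363 CPM). It had 42 to 92 reads in the day 1 libraries (2.26 and 2.45 CPM with 3 digits, 3.00, 2.69 and 7.40 CPM with 1 digit). The day 3 libraries had 5.80, 0.676, 2.43, 5.65 and 5.22 CPM, of which the lowest, replicate 2, rested on 12 reads. No later library overlapped day 0. Slc7a11 rose by 3.93 ± 0.67 on the log2 scale at day 1 (adjusted p = 0.000569) and by 4.09 ± 0.67 at day 3 (adjusted p = 0.000635). Because the day 0 counts were so low, the size of this fold is uncertain, and with both strands counted together it was 2.92 and 2.98 (adjusted p = 0.0015 and 0.00184), since 2 to 11 reads per day 0 library lay on the other strand, where the annotation has 3 further genes. Slc7a11 was called at both days in every fit that kept it, and the filter that required 10 reads in every library removed it.

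Txnrd1 and Srxn1, which act on thioredoxin and peroxiredoxin, were both higher at day 1. Txnrd1 (chr10:82833951-82897712, plus strand, up to 15 exons), cytosolic thioredoxin reductase, had 201, 204, 217 and 175 CPM at day 0. At day 1 it had 459.6 and 504 CPM with 3 digits and 661, 939 and 748 CPM with 1 digit, and every one was more than any day 0 library. Its day 3 libraries had 332, 182, 301, 248 and 453 CPM, with replicate 2 inside the day 0 range. Txnrd1 rose by a log2 fold change of 1.74 ± 0.26 (adjusted p = 0.000249), which is 3.33-fold, at day 1. It was 0.61 ± 0.25 at day 3 (adjusted p = 0.0746), or 0.75 without day 3 replicate 2 (adjusted p = 0.02). It was lower at day 3 than at day 1 by −1.13 ± 0.24 (adjusted p = 0.00846), with no overlap between the days. Within the formats this was −1.16 ± 0.28 with 1 digit (adjusted p = 0.00791) and −0.83 ± 0.27 with 3 digits, which was not called (adjusted p = 0.0552).

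Srxn1 (chr2:152105516-152111376, plus strand, up to 2 exons), sulfiredoxin, which restores peroxiredoxins that have been overoxidised, was among the steadiest genes at day 0, with 80.0, 85.8, 80.1 and 87.5 CPM. At day 1 it had 819.8 and 589 CPM with 3 digits and 279.8, 702 and 407 CPM with 1 digit. By day 3 the libraries had 369.6, 94.7, 213, 299.7 and 569 CPM. All 10 later libraries lay above all 4 day 0 libraries, replicate 2 of day 3 by the smallest margin. Srxn1 was higher by 2.75 ± 0.44 on the log2 scale at day 1 (6.71-fold, adjusted p = 0.000361) and by 1.89 ± 0.42 at day 3 (3.71-fold, adjusted p = 0.00414), and the 1-digit libraries gave 2.47 ± 0.40 (adjusted p = 0.000176) and 2.38 ± 0.42 (adjusted p = 0.000543). From day 1 to day 3 it was −1.64 ± 0.46 with 3 digits (adjusted p = 0.0323) and −0.09 ± 0.46 with 1 digit (adjusted p = 0.897).

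Gsr (chr8:33652523-33698163, plus strand, up to 13 exons), glutathione reductase, was the tightest of the genes at day 0, with 220.3, 224, 233 and 229 CPM. At day 1 it had 464 and 415 CPM with 3 digits and 216, 363 and 239 CPM with 1 digit. The day 3 values were 332, 170.5, 339, 415 and 369 CPM. All but 1 library of each later day exceeded every day 0 library, the exceptions being day 1 replicate 3 and day 3 replicate 2. The log2 fold change of 0.58 ± 0.26 at day 1 (adjusted p = 0.0799) and 0.52 ± 0.26 at day 3 (adjusted p = 0.131) did not pass the test. The day 1 value was 0.27 ± 0.22 with 1-digit libraries alone (adjusted p = 0.316) and 0.96 with 3-digit libraries alone (adjusted p = 0.00876). Over all libraries each passed without the low library of its day (0.71, adjusted p = 0.035 at day 1, and 0.68, adjusted p = 0.0223 at day 3), and day 1 also passed without day 3 replicate 2 (0.58, adjusted p = 0.0337).

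**Figure D3:**
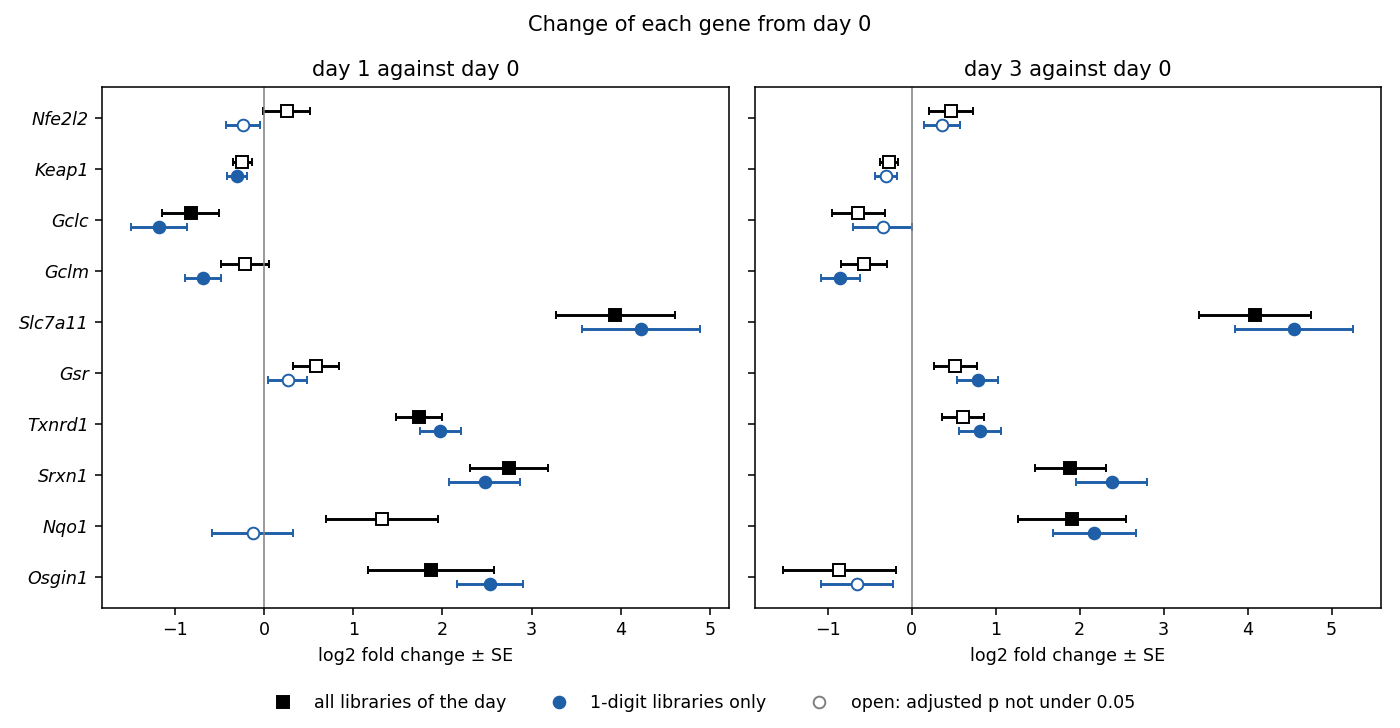
Log2 fold change (± SE) of each gene at day 1 and at day 3 against day 0, from all libraries of the day (black squares) and from the 1-digit libraries alone (blue circles), with open symbols where the adjusted p was not under 0.05. Srxn1 and Slc7a11 are filled on the right of 0 in both panels and both sets, whereas Nqo1 at day 1 lies at 1.32 with all libraries and at −0.13 with the 1-digit ones.

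Nqo1 and Osgin1 are both classical NRF2 targets, and in these kidneys they were high in different libraries. Nqo1 (chr8:107388225-107403206, minus strand, up to 6 exons), a quinone reductase, had 43.1, 47.8, 51.7 and 42.3 CPM at day 0. Day 1 gave 232 and 217 CPM with 3 digits, above all of day 0, and 31.3, 56.3 and 39.3 CPM with 1 digit, which spanned the day 0 range. Day 3 gave 242, 37.0 and 170.0 CPM with 3 digits and 294 and 124 CPM with 1 digit, and replicate 2 alone was not above day 0. Its log2 fold change was 1.32 ± 0.63 at day 1 (adjusted p = 0.103) and 1.91 ± 0.64 at day 3 (adjusted p = 0.0341). The day 3 call was lost when any of 7 of the 14 libraries was left out (any day 0 library, or replicate 1, 3 or 4 of day 3), with adjusted p from 0.0503 to 0.0814. Of 11 other settings, 1 also lost the call (adjusted p = 0.0596). With 1-digit libraries alone Nqo1 was −0.13 ± 0.46 at day 1 (adjusted p = 0.828), 2.18 ± 0.49 at day 3 (adjusted p = 0.00251), and 2.30 ± 0.54 from day 1 to day 3 (adjusted p = 0.00652). Libraries with 3 digits gave 2.28 at day 1 (adjusted p = 0.00564) and 1.70 at day 3 (adjusted p = 0.0189) against day 0.

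Osgin1 (chr8:119434124-119446256, plus strand, up to 6 exons), an oxidative stress induced growth inhibitor, had 61.1, 97.0, 74.1 and 73.5 CPM at day 0. Day 1 gave 581, 234 and 513 CPM with 1 digit and 42.8 and 30.2 CPM with 3 digits, the former above and the latter below every day 0 library. Day 3 gave 27.4, 48.3 and 37.4 CPM with 3 digits and 23.8 and 73.7 CPM with 1 digit. Over all libraries Osgin1 was higher at day 1 by 1.87 ± 0.71 (adjusted p = 0.0453), a mean of libraries that lay on opposite sides of day 0. With 1 digit alone the value was 2.53 ± 0.37 (adjusted p = 8.22e-05), and with 3 digits alone it was −1.06 (adjusted p = 0.00914). The call over all libraries was lost when any of 10 of the 14 libraries was left out, that is any other than replicates 1 and 2 of day 1 and replicates 4 and 5 of day 3, with values from 1.42 to 2.01. Other settings that lost the call were library totals as the scaling (adjusted p = 0.0506), the libraries of days 0 and 1 alone (adjusted p = 0.071) and a term for the replicate number (adjusted p = 0.228). For day 3 it was −0.86 ± 0.67 (adjusted p = 0.334), and it was −0.65 ± 0.42 with 1 digit alone (adjusted p = 0.21) and −1.02 with 3 digits alone (adjusted p = 0.00726). The 1-digit value at day 3 was −1.66 and called without replicate 5 (adjusted p = 0.0191) and −0.049 without replicate 4 (adjusted p = 0.934), each leaving 1 library that is assumed to vary like the other groups. From day 1 to day 3 Osgin1 fell by 3.18 on the log2 scale with 1 digit (adjusted p = 0.000716), and with 3 digits the value was 0.05 (adjusted p = 0.952).

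The ratio of Osgin1 to Nqo1 reads within a library, which no scaling between libraries can alter, was 1.42 to 2.03 at day 0. Day 1 gave 18.6, 4.16 and 13.0 with 1 digit and 0.185 and 0.139 with 3 digits. Each gene alone separated the formats at day 1, in opposite directions, so the ratio had to separate them and adds no further result. Day 3 gave 0.113, 1.30 and 0.220 with 3 digits and 0.0810 and 0.595 with 1 digit, and only replicate 2 came near the day 0 range.

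**Figure D4:**
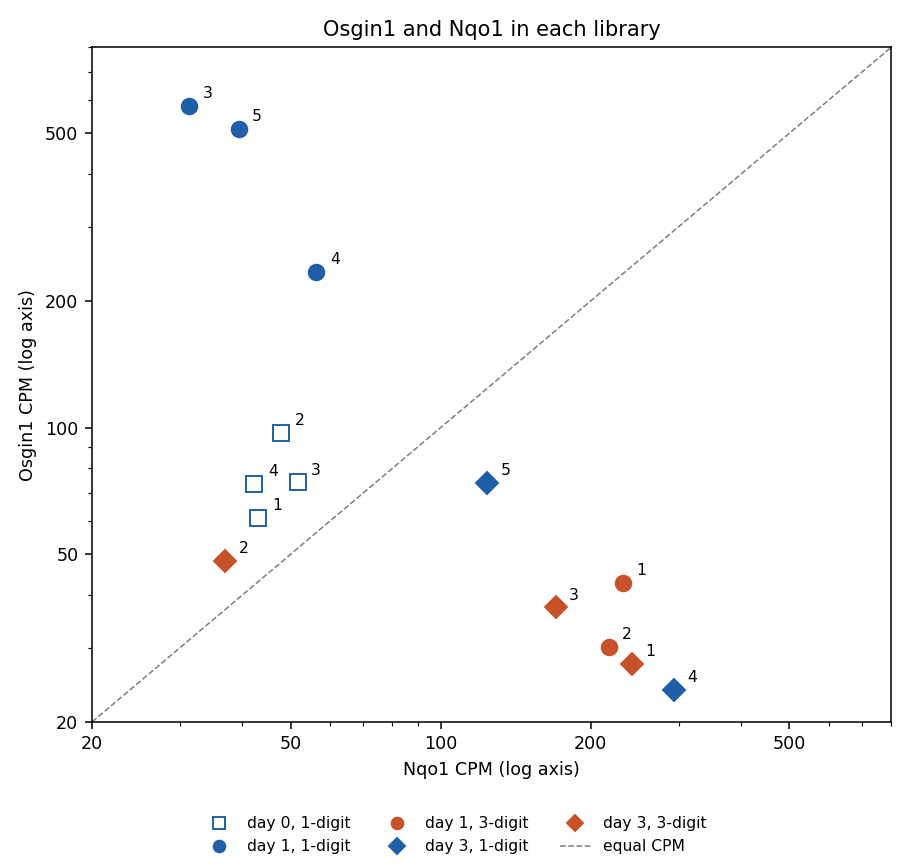
Osgin1 against Nqo1 CPM in each library (both axes logarithmic), with the replicate number beside each point, open squares for day 0, circles for day 1, diamonds for day 3, blue for 1-digit and orange for 3-digit libraries. The 1-digit libraries of day 1 lie at the upper left, the 3-digit libraries of day 1 and 4 of the 5 day 3 libraries at the lower right, and day 3 replicate 2 beside day 0.

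The number format was compared within each day. At day 1, Nfe2l2 (1.01 ± 0.23, adjusted p = 0.00509), Nqo1 (2.41 ± 0.54, adjusted p = 0.00484) and Gclm (0.98 ± 0.24, adjusted p = 0.00689) were higher in the 3-digit libraries, 3 of 10 where 18.6% of all genes were called higher. Osgin1 was lower by −3.60 ± 0.51 (adjusted p = 0.000417), 1 of 10 where 16.4% of all genes were called lower. Gsr (0.69 ± 0.26, adjusted p = 0.0561), Txnrd1 (−0.70 ± 0.28, adjusted p = 0.0635), Gclc (0.76 ± 0.36, adjusted p = 0.119) and Slc7a11 (−0.87 ± 0.65, adjusted p = 0.317) did not overlap between the formats but were not called. With the called genes, 8 of the 10 had no overlap, where 60.7% of all genes had none. Gsr was called without day 1 replicate 4 or day 3 replicate 1 or 2 (adjusted p from 0.0117 to 0.0491) and with library totals as the scaling (0.0174). Gclc was also called with library totals as the scaling (adjusted p = 0.0445). Txnrd1 was called without day 3 replicate 2, 4 or 5 (adjusted p from 0.029 to 0.0337) and by DESeq2 (0.0252). The call for Gclm was lost without day 1 replicate 2 (0.73, adjusted p = 0.103), a fit in which the 1 remaining 3-digit library of the day is assumed to vary like the other groups. At day 3 none of the 10 was called in either direction by edgeR or by DESeq2, and none had an unadjusted p under 0.05, where 10.3% of all genes were called higher and 8.22% lower. The difference between the formats itself changed from day 1 to day 3 for Nqo1 (2.89 ± 0.75, adjusted p = 0.019), Gsr (1.17 ± 0.37, adjusted p = 0.0442) and Osgin1 (−3.23 ± 0.65, adjusted p = 0.00546), 3 of 10 where 17.6% of all genes were called. The call for Gsr was lost in 10 of the 14 fits without 1 library, all but those without day 1 replicate 4 and day 3 replicates 1, 2 and 3. That for Nqo1 was lost without day 1 replicate 1 (2.83, adjusted p = 0.0591) or day 3 replicate 4 (2.14, adjusted p = 0.0862).

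Beside these differences at day 1, the 3-digit libraries had 8356 and 8362 summed CPM of the tubular injury markers against 3147 to 5693 in the 1-digit ones, and 18502 and 28988 summed CPM of the proximal tubule markers against 35416 to 46169. In all, 10 of the 14 marker lists had no overlap between the formats at day 1, where 60.7% of all single genes tested had none. The 3-digit libraries were higher for fibroblast and pericyte (270.1 and 341 against 122 to 165), macrophage (107 and 127 against 72.0 to 79.1), adipocyte (20.98 and 34.3 against 0.545 to 5.89), urothelium (12.7 and 91.7 against 4.84 to 7.64), proliferation (44.1 and 120.5 against 32.0 to 40.8) and distal tubule and collecting duct markers (995 and 1026 against 776 to 956). They were lower for endothelium (225 and 290.5 against 297 to 393) and lymphocyte markers (0.162 and 0.273 against 0.886 to 1.09). The lymphocyte sums rest on very few reads, and 0 of the 4 genes had enough reads to be tested. Their part in the differences was not tested.

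**Figure D5:**
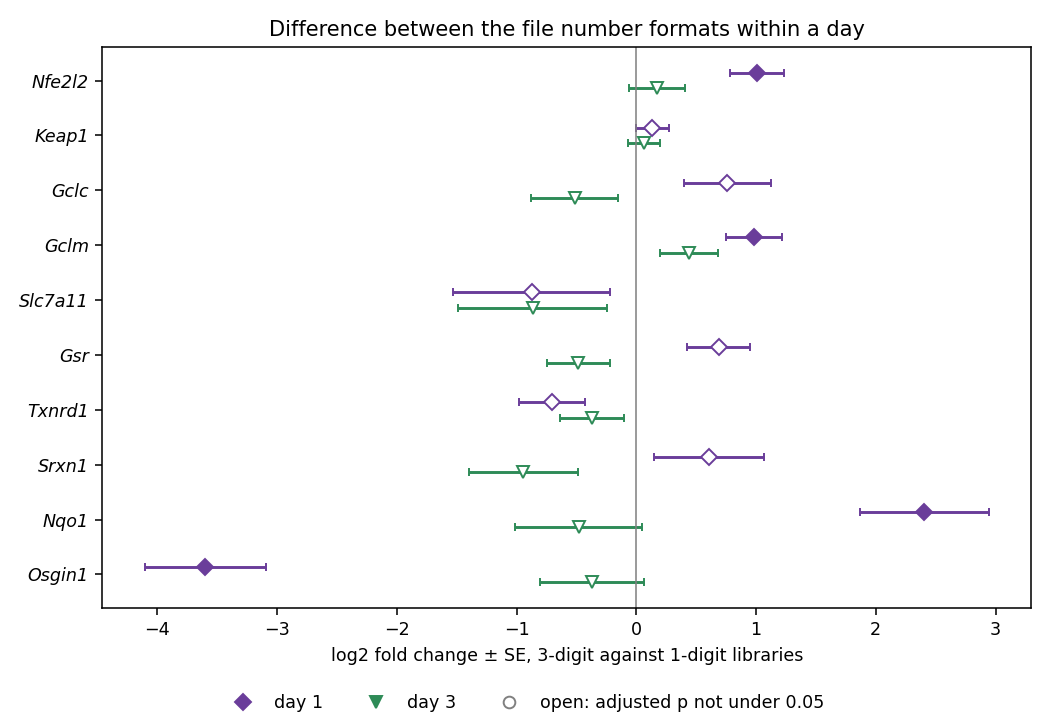
Log2 fold change (± SE) of 3-digit against 1-digit libraries within day 1 (purple diamonds) and within day 3 (green triangles), with open symbols where the adjusted p was not under 0.05. Filled symbols occur at day 1 only, for Nfe2l2, Gclm and Nqo1 on the right of 0 and for Osgin1 on the left at −3.60.

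Compared with day 0 within the 1-digit libraries, 4 of the 10 genes were higher at day 1 (28.9% of all genes) and 3 were lower (29.6%). The higher genes were Txnrd1 (1.98 ± 0.23), Srxn1, Slc7a11 (4.22 ± 0.67) and Osgin1, and the lower genes were Keap1, Gclc and Gclm. At day 3, 5 of the 10 were higher (28.6% of all genes) and 1 was lower (25.1%). The higher genes were Nqo1, Srxn1, Slc7a11 (4.55 ± 0.70), Txnrd1 (0.82 ± 0.25, adjusted p = 0.0142) and Gsr (0.79 ± 0.25, adjusted p = 0.0156), and the lower gene was Gclm. Without day 3 replicate 4 the calls for Nqo1 (1.43, adjusted p = 0.0588) and Gsr (0.70, adjusted p = 0.0854) were lost, and without day 3 replicate 5 those for Gclm and Txnrd1 (0.35, adjusted p = 0.34). Each of these fits has 1 library with 1 digit at day 3, which is assumed to vary like the other groups.

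Replicate 2 of day 3 stood apart among the later libraries. It had the lowest value of its day for 6 of the 10 genes (Nqo1, Gclc, Txnrd1, Srxn1, Slc7a11 and Gsr) and the highest for Keap1. It also had the lowest summed CPM of the tubular injury markers of the day (2242 against 3298 to 7068), the highest of the proximal tubule markers (19143 against 9299 to 11524) and the lowest of the neutrophil markers (17.1 against 62.5 to 400.1). By the same count, day 0 replicate 1 had the lowest value of its day for 5 of the 10. Without day 3 replicate 2, 5 of the 10 genes were called higher at day 3, where 22.1% of all genes were, and 1 lower, where 17.6% were. That library was singled out by its values in these same genes, so the calls without it are not a separate result.

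Over the libraries of both formats, the 10 genes were also more variable at days 1 and 3 than the median gene. The median SD of their log2 CPM was 0.11 at day 0, 0.60 at day 1 and 0.57 at day 3, beside medians over all genes tested of 0.14, 0.38 and 0.38. At day 1 the SD of 9 of the 10 exceeded the median of all genes, and at day 3 that of 8. Day 0 has 1-digit libraries only, so the SDs of the later days also hold any difference between the formats. At day 1 the SD of Osgin1 was 2.00 over all libraries, 0.711 with 1 digit and 0.357 with 3 digits. For Nqo1 these were 1.37, 0.426 and 0.0684, for Srxn1 0.627, 0.667 and 0.337, and for Slc7a11 0.675, 0.781 and 0.0782. Osgin1 had the widest range at day 1, its highest library being 19.3 times its lowest, and Keap1 the narrowest, at 1.23 times.

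Per length of exon, levels at day 0 were highest for Gclc (101 ± 31.3 CPM per kb, SD, n = 4) and Gsr (82.4 ± 2.09), whose spreads overlap, followed by Gclm (45.8 ± 2.38). Nqo1, Srxn1, Osgin1 and Txnrd1 lay between 28.1 and 29.8 CPM per kb and did not differ beyond their SDs. Nfe2l2 (23.3 ± 1.11), Keap1 (12.04 ± 0.746) and Slc7a11 (0.0161 ± 0.00731) came last. At day 1 Srxn1 had the highest mean (198 ± 77.4 CPM per kb, n = 5), within its SD of Gsr (123 ± 39.5), and with 1 digit alone Osgin1 (166 ± 68.8) and Srxn1 (164 ± 76.8) were level. At day 3 Gsr (118 ± 33.5), Nqo1 (112 ± 64.6) and Srxn1 (109.6 ± 63.1) were within their SDs of each other, while the mean of Slc7a11 was 0.256 and 0.284 CPM per kb at days 1 and 3.

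Other genes of the pathway were taken from 6 lists of 57 genes, of which 56 were tested. Their counts stand beside the shares of all genes given above, which were 23.3% higher and 18.7% lower at day 1, 19.5% and 13.8% at day 3, and with 1 digit 28.9% and 29.6% at day 1 and 28.6% and 25.1% at day 3, and between the formats at day 1 were 18.6% higher and 16.4% lower with 3 digits. The list medians stand beside all-gene medians of 0.01 at day 1 and 0.05 at day 3. Among 10 regulators and partners of NRF2, 4 were higher at day 1 and none lower (median 0.29). With 1 digit alone 7 were higher and 1 lower at day 1 and 4 higher and 1 lower at day 3, and between the formats at day 1, 6 of the 10 were lower with 3 digits and none higher (median −0.78). The largest changes were in the small MAF genes, with Maff at 3.89 ± 0.96 CPM at day 0 and 125 ± 72.8 at day 1 (log2 fold change 5.003 ± 0.583, adjusted p = 4.06e-05) and Mafk at 30.1 ± 4.53 and 115 ± 61.9 CPM (1.93 ± 0.45, adjusted p = 0.00432). The day 1 mean of Maff was 177 ± 25.5 CPM with 1 digit (n = 3) and 48.3 ± 12.2 with 3 digits (n = 2), and the formats differed by −1.87 ± 0.32 (edgeR, adjusted p = 0.00117). That of Mafk was 159 ± 16.6 and 48.9 ± 18.2 CPM (edgeR, −1.70 ± 0.28, adjusted p = 0.000954). Against day 0 the 1-digit libraries alone gave 5.50 ± 0.30 for Maff and 2.40 ± 0.23 for Mafk. At day 3 (median 0.16), 1 of the 10 was higher, Maff (2.55 ± 0.53, adjusted p = 0.0027), and 1 lower, Btrc, a subunit of a ubiquitin ligase that can also target NRF2 (−0.32 ± 0.11, adjusted p = 0.0432), and with 1 digit alone these were 3.16 ± 0.30 and −0.37 ± 0.13.

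Of 8 further genes of glutathione synthesis and turnover, 2 were higher and 2 lower at day 1 (median −0.0093), and none was higher and 4 were lower at day 3 (median −1.05). With 1 digit alone 2 were higher and 2 lower at day 1 and 2 higher and 5 lower at day 3, and between the formats at day 1, 2 were higher and 6 lower with 3 digits (median −0.98). Chac1, which degrades glutathione inside the cell, rose from 0.911 ± 0.165 to 7.61 ± 6.48 CPM at day 1 (3.06 ± 0.71, adjusted p = 0.00393), and Anpep, an aminopeptidase of the brush border, fell from 230.3 ± 16.2 to 106 ± 55.3 CPM (−1.12 ± 0.34, adjusted p = 0.0182). The highest Chac1 library of day 1 had 19.0 CPM and the next 6.27, and without the highest the mean was 4.78 CPM. Ggt1, which starts the breakdown of glutathione at the brush border, was lower at day 3 (1595 ± 41.8 against 424 ± 233 CPM, −1.91 ± 0.37, adjusted p = 0.00169), as was Ggct (−1.25 ± 0.30, adjusted p = 0.00592). For 1-digit libraries, Chac1 was 2.23 ± 0.52 and Anpep −0.74 ± 0.24 at day 1, and Ggt1 was −2.81 ± 0.27 and Ggct −1.42 ± 0.26 at day 3. Ggt1 and Anpep are brush border genes of the proximal tubule, of whose 10 markers 4 were called lower at day 1 and 5 at day 3. The part of those markers in these values was not tested.

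Of 10 glutathione transferases tested, 2 were higher and none lower at each day (medians −0.023 and 0.32), a share near that of all genes. They were Gsta2 (29.4 ± 26.1 CPM at day 0, 121 ± 43.4 at day 1 and 179 ± 128 at day 3, log2 fold changes 2.04 and 2.61) and Mgst1 (56.8 ± 11.95, 216 ± 129 and 338 ± 173 CPM, 1.93 and 2.57). The highest Gsta2 library of day 0 had 68.2 CPM and the next 21.1, and without the highest the day 0 mean was 16.4 CPM. In the 1-digit comparison 2 were higher and 3 lower at day 1 and 3 higher and 2 lower at day 3, and Gsta2 was 2.03 and 3.04 and Mgst1 1.14 and 3.09. Between the formats at day 1, 1 was higher and 1 lower with 3 digits (median 0.29).

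Of 6 genes that supply NADPH, which both reductases consume, 2 were higher and 1 lower at day 1, and 4 were higher and 1 lower at day 3 (medians 0.55 and 0.80). With 1 digit alone 2 were higher and 2 lower at day 1 and 4 higher and 1 lower at day 3, and between the formats at day 1, 3 were higher and 1 lower with 3 digits (median 0.54). Pgd, of the pentose phosphate pathway, was higher at both days (1.49 ± 0.29, adjusted p = 0.00143, and 1.25 ± 0.29, adjusted p = 0.00533). Taldo1, of the same pathway, was higher at day 1 (1.13 ± 0.30, adjusted p = 0.00897), and Me1, malic enzyme, was lower at day 3 (−1.36 ± 0.24, adjusted p = 0.00107). For 1-digit libraries, Pgd was 1.09 and 1.61 at the 2 days, Taldo1 0.99 at day 1 and Me1 −1.86 at day 3.

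Of 10 thioredoxin and peroxiredoxin genes, 3 were higher and none lower at day 1, and 2 were higher and 1 lower at day 3 (medians 0.066 and 0.041), shares near those of all genes for higher calls. In the 1-digit comparison 3 were higher and 1 lower at day 1 and 2 higher and 2 lower at day 3, and edgeR called none between the formats at day 1 (median −0.019), where 1, Txnip, had an unadjusted p under 0.05. Txn1, the substrate of Txnrd1, was higher at both days (0.99 ± 0.21, adjusted p = 0.00246, and 0.65 ± 0.21, adjusted p = 0.0274), as was Txnip, which binds and inhibits thioredoxin (0.98 ± 0.31, adjusted p = 0.0206, and 1.14 ± 0.31, adjusted p = 0.0126). For 1-digit libraries, Txn1 was 0.82 and 0.97 and Txnip 1.24 and 1.48 at the 2 days.

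Of 12 genes of detoxification and export, 2 were higher at day 1 and 6 at day 3, with none lower at either day (medians 0.44 and 1.22). In the 1-digit comparison 1 was higher and 1 lower at day 1 and 8 higher and 1 lower at day 3, and between the formats at day 1, 6 were higher and 1 lower with 3 digits (median 0.98). Akr1b8, an aldo-keto reductase, went from 5.15 ± 3.43 CPM at day 0 to 97.3 ± 36.4 at day 1 and 60.6 ± 28.5 at day 3 (4.24 ± 0.48, adjusted p = 3.46e-05, and 3.55 ± 0.47, adjusted p = 0.000152). Cbr3, a carbonyl reductase, went from 1.29 ± 0.179 CPM to 5.68 ± 3.98 and 12.2 ± 6.72 (2.14 ± 0.60, adjusted p = 0.0114, and 3.24 ± 0.62, adjusted p = 0.00173). For 1-digit libraries, Akr1b8 was 3.95 and 4.09 at the 2 days, and Cbr3 was 1.28 ± 0.58 at day 1, which was not called (adjusted p = 0.076), and 3.32 at day 3.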

How the data were processed

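Total RNA of whole kidneys had been extracted with TRIzol and sequenced from TruSeq libraries. The submitters' processing notes name Trimmomatic, STAR and the mm10 genome, with versions and annotation not given in the sources used here. For each library the authors deposited a table of raw counts per gene symbol, unstranded and for either strand, from uniquely mapped reads. The column that held 98.5% to 98.7% of strand-assigned reads was used. The 4 rows that name no gene (29.0% to 38.3% of reads) were left out. No pair of replicates agreed to within the noise of sampling (chi-square over its degrees of freedom 5.69 to 228), and each library was counted as 1 sample.

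The tests used edgeR 4.0.16 (filterByExpr, TMM, quasi-likelihood test), limma 3.58.1 and R 4.3.3, with 1 term per day over all 14 libraries, and with 1 term per day and number format for comparisons that use the format. P-values were adjusted by Benjamini-Hochberg over 14300 genes, with a call under 0.05, and SE was derived from the F value. Log2 CPM used a prior count of 2. Alternatives were other scalings, filters, strands, designs and DESeq2 1.42.0, and each library was left out in turn. The genes, the 6 pathway lists and the 14 marker lists were chosen with earlier results of these data known. Of each pathway list the 2 called genes with the largest absolute log2 fold change were named at each day. Coordinates are from GENCODE M21 (GRCm38, the same assembly as mm10). STAR counts a read that overlaps more than 1 gene for none, and on the same strand this annotation places Gm24996 over Nfe2l2, Gm6061 over Gclm, Eid3 over Txnrd1, Gm37692 and Gm37498 over Slc7a11 and Gm24727 over Gsr. Figures were drawn with matplotlib.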

Additional observations from a re-analysis of the deposited data

Results flagged for a closer look

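In 30 groups of 4 or 5 libraries (each of the 10 genes at each day), Dixon's test of the most extreme library at the 95% level marked 2, where chance marks about 1 in 20. Slc7a11 in day 1 replicate 5 had a log2 CPM of 2.91, above the next library of its day at 1.64, from 92 reads. Gsr in day 3 replicate 2 had a log2 CPM of 7.41, below the next at 8.37.

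The difference between 3-digit and 1-digit libraries was not the same at day 1 and day 3 for 3 of the 10 genes by the test of that difference (edgeR). The value at day 1 minus that at day 3 was 2.89 on the log2 scale for Nqo1 (2.41 and −0.48), 1.17 for Gsr (0.69 and −0.48) and −3.23 for Osgin1 (−3.60 and −0.37). The estimates for Nqo1 and Gsr had opposite signs at day 1 and day 3, but a reversal is not shown. Neither day 3 difference was called by edgeR (adjusted p = 0.537 for Nqo1 and 0.201 for Gsr), nor that of Gsr at day 1 (adjusted p = 0.0561). With 1 library left out, the call for Gsr was lost in 10 of 14 fits and that for Nqo1 in 2, without day 1 replicate 1 or day 3 replicate 4.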

How the results depend on the processing

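Over all settings other than leaving out a library, 514 of 572 values of single genes kept their direction and side of the threshold, as did 1022 of 1120 without 1 library, and the calls over all libraries for Srxn1 and Slc7a11 at both days and for Txnrd1 at day 1 held in each of these fits that gave a value. Where a value below changed, the cause was not tested. With the strands combined, the interaction of Slc7a11 (format difference at day 1 minus that at day 3) turned to 0.27. With library totals as the only scaling, the median of all genes moved by over 0.1, to 0.19 at day 3, 0.17 between the later days, −0.16 and 0.16 with 1 digit at days 1 and 3, 0.24 between formats at day 1 and 0.19 in the interaction. The share of higher among called genes then went from 58.5% to 73.8% at day 3, from 53.6% to 77.9% between the later days, from 53.1% to 73.1% between formats at day 1 and from 48.1% to 65.0% in the interaction. Keap1 (0.13) and Gsr (0.066) between the later days and the interaction of Slc7a11 (0.17) reversed, and 5 members were higher between formats at day 1, where 27.3% of all genes were. With number format as a term, Nfe2l2 at day 1 (−0.053) and Osgin1 at day 3 (0.51) reversed, and 2 members were lower at each day and 1 between the later days (8.66% of all genes). With only 1-digit libraries, reversals were Nfe2l2 (−0.20) and Nqo1 (−0.094) at day 1 and Gsr between the later days (0.51), the calls were 3 lower at day 1, 5 higher and 1 lower at day 3 and 1 higher between the later days (17.9% of all genes), and over all genes 8119 at day 3 and 5194 between the later days. With only 3-digit libraries, reversals were Gclm (0.30) and Osgin1 (−1.06) at day 1 and, between the later days, Nfe2l2 (−0.24), Nqo1 (−0.59), Gclc (−0.45) and Osgin1 (0.044), and 2 members were lower at day 3. The 1 lower call at day 1 became 0 with the strands combined, with library totals, with the replicate block and with a minimum log2 change of 1 in size, which left 2963, 2597 and 921 genes in all at day 1, at day 3 and between the later days. Over these settings between 8.87% and 29.8% of all genes were called lower at day 1, between 6.22% and 25.8% lower at day 3, and between 11.9% and 30.5% higher at day 3. DESeq2 called 2 members lower at day 1, 1 at day 3, 2 with 1 digit at day 3, where 27.1% of all genes were, and 2 between formats at day 1, where 19.9% were. Fits of only the 2 days compared called 2 lower at day 3, and 1 lower (2.59% of all genes) and 831 genes in all between the later days. RLE size factors gave 2 lower with 1 digit at day 3 (25.9% of all genes) and 1 higher in the interaction (7.56%), and a minimum of 10 counts in every library gave 2 lower with 1 digit at day 3 (26.5%). With the replicate block (a term for the replicate number), 3 members were higher at each day (19.8% and 16.2% of all genes), 0 lower (16.3% and 12.5%), and 2 lower between the later days (6.77%). The numbers do not pair the libraries: of 13 pairs with the same number and different days, 4 had deviations correlated over 0.1 (−0.17 to 0.26), and 4 of 14 libraries correlated best with their own number. Leaving out 1 library gave 4759 to 6533 genes called at day 1, 3338 to 5659 at day 3, 1269 to 3350 between the later days, 1997 to 5602 between formats at day 1, 91 (without day 3 replicate 5) to 4771 at day 3 and 1260 to 3148 in the interaction. Members called then ranged from 0 to 1 lower at day 1, 2 to 5 higher and 0 to 1 lower at day 3, 1 to 3 lower with 1 digit at day 1, 3 to 5 higher and 1 to 2 lower at day 3, 1 to 2 lower between formats at day 1, 0 to 1 higher and 0 to 2 lower at day 3, and 0 to 3 higher in the interaction. In the same fits and order, the shares of all genes were 14.4% to 21.3%, 13.6% to 22.1% and 9.35% to 17.6%, 24.0% to 31.1%, 20.1% to 29.8% and 16.4% to 26.6%, 5.58% to 18.6%, 0.344% to 17.5% and 0.295% to 16.0%, and at least 4.07%. Values that could reverse in this way were, between the later days, Gclc (−0.080 to 0.36), Gsr (−0.19 to 0.10), Keap1 (−0.088 to 0.016) and Slc7a11 (−0.024 to 0.60), with 1 digit Gclc (−1.03 to 0.14) and Nfe2l2 (−0.11 to 0.74) at day 3 and Nqo1 (−0.39 to 0.053) at day 1, between formats at day 3 Gclc (−0.997 to 0.17), Keap1 (−0.052 to 0.15), Nfe2l2 (−0.20 to 0.65), Nqo1 (−1.01 to 0.27), Osgin1 (−0.97 to 0.64) and Txnrd1 (−0.74 to 0.11), and in the interaction Keap1 (−0.015 to 0.19), Slc7a11 (−0.47 to 0.92) and Txnrd1 (−0.82 to 0.040). At the depth of these libraries the day 0 level of Slc7a11 rests on 2 to 6 reads.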
